A study of Sus scrofa with 22 samples.

Results

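The basal transcriptome of porcine blood mononuclear cells was described from the 10 arrays whose titles place them in the control group at time 0, labelled as basal. These were 10 of the 22 arrays of the series, and the other 12 were taken at 9 months. The 10 arrays came from 10 mini pigs whose diet is labelled normal, 5 females (pigs 6, 8, 10, 17 and 20) and 5 males (pigs 11, 12, 15, 24 and 25), with 1 array per pig. Ages, breed lines and litters are not given in the sources used here, and no genetic change or agent is named for these animals. The cells were isolated from heparinised blood on a Histopaque gradient, their RNA was purified on RNeasy Plus columns, and 4 µg was labelled with the One-Cycle kit for an Affymetrix porcine array. Pigs are called here by sex and number. Where values of females and males are set side by side they are a description, and no test between the sexes was run. All spread is between pigs and includes the error of a single array, since no pig was measured by a second array at time 0.

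Mononuclear cells are the blood cells with a round nucleus that stay on top of a density gradient while most granulocytes and red cells sink. They are mainly T cells, B cells, natural killer (NK) cells and monocytes, and platelets are often carried over with them. Lymphocytes at rest devote much of their RNA to ribosomes and to antigen presentation, monocytes carry the inflammatory cytokine genes, and every one of these cells can switch on interferon-stimulated genes, the antiviral programme that follows type I interferon. Immediate early genes such as FOS are transcribed within minutes of many stimuli, including handling of the blood.

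Signals are log2 of the deposited intensity, so 1 unit is a 2-fold difference. A gene was called measured where its signal was above 5 in at least 2 of the 10 arrays, and 5808 of the 6765 genes named on the array met this. Each gene is represented by its brightest probe set. Probe sets differ in how strongly they bind, so the signals of different genes are not an order of transcript amounts.

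Markers of T cells, B cells, NK cells and monocytes were all measured, as the label of the cells implies. T cell genes were bright: CD3E, a chain of the T cell receptor complex, lay between 11.71 and 12.28 with a median of 12.09, and the 15 measured genes of the T cell list had a median signal of 11.16. CD79B, part of the B cell receptor, ranged from 9.86 to 10.62 around a median of 10.31, and JCHAIN, which joins secreted antibody units, from 11.39 to 12.06 around 11.92. The cytotoxic granule genes GNLY and GZMH had medians of 12.00 and 12.04, and FCGR3A, the low-affinity antibody receptor of NK cells and some monocytes, had a mean of 12.52 with an SD of only 0.06 (n = 10). CD14, the lipopolysaccharide co-receptor that defines classical monocytes, ranged from 8.64 to 9.90 with a median of 9.33, while the myeloid protease gene CTSS lay at 12.44 to 12.93. Each of these lineages thus had bright markers in every pig.

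Genes of cells that the gradient should remove were also measured. The granulocyte-type list gave a median signal of 5.76 over its 10 measured genes, and the list's mean signal ranged from 6.20 in male 11 to 6.73 in female 10. The genes S100A8 and S100A12, abundant in neutrophils, were close to the detection threshold, with medians of 4.98 and 5.04, and ELANE, the neutrophil elastase gene, had a median of 5.34, whereas ARG1 and S100A9 were brighter at 9.84 and 8.84. MMP9 and PR39 of that list were not measured. Platelet genes were well above threshold, with medians of 10.80 for CD9, 9.61 for ITGA2B and 9.07 for PPBP. Red cell genes were present as well: ALAS2, the erythroid enzyme that starts haem synthesis, had a median of 11.40, HBM 10.27 and HBB 9.26. The mean of the 7 erythroid genes ranged from 7.75 in male 12 to 8.87 in male 24. In bulk RNA, fewer cells of a type and less RNA per cell cannot be told apart, here and in all results that follow.

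Arrays resembled each other closely. Over 45 pairs of arrays, Pearson r across genes had a median of 0.982 and ranged from 0.966 to 0.994. Females 6 and 10 stood apart on the control probe sets: the mean of 39 poly-A spike-in probe sets, RNA added before labelling, was 8.88 and 8.93 in them and 7.46 to 7.71 in the other 8 arrays. The difference between the 3′ and 5′ actin control probe sets, a sign of RNA integrity and labelling length, was 2.45 in female 6, 1.84 in female 10 and 0.79 to 1.68 in the other 8. The same pigs had the highest scores on the first principal component, which held 35.3% of the variance. Every female scored positive on it (0.003 to 0.281) and every male negative (-0.158 to -0.093), so it also divided the sexes. The values of females 6 and 10 are given beside the results they touch.

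The brightest genes were those of protein synthesis. Of the 25 genes with the highest mean signal, 17 encode cytosolic ribosomal proteins and 2 more, EF1ALPHA and TPT1, are on the translation factor list. RPS18 lay between 14.03 and 14.16 (median 14.11), RPS29 between 13.98 and 14.06, and RPL11 between 13.94 and 14.03. RACK1, a scaffold protein of the small ribosomal subunit, was also among them at a median of 13.88. The remaining genes of the 25 were OAZ1, the antizyme that marks ornithine decarboxylase for degradation (14.04 to 14.41, median 14.28); B2M, the light chain of class I antigen-presenting molecules (13.75 to 14.29, median 14.11); TMSB10, a thymosin that binds actin monomers (13.98 to 14.10, median 14.04); UBB, which encodes ubiquitin (13.94 to 13.99, median 13.95); and ZC3H10, a zinc finger gene (13.72 to 13.86, median 13.77). The list ended at ZC3H10 with a mean of 13.776, and the next gene, RPS15, had 13.775, so its lower edge has no meaning beyond the count. At 9 months, over the control diet and both high-fat diets, 22 of the same 25 genes were again among the brightest 25. With the mean of all probe sets of a gene in place of the brightest, 14 of the 25 remained, since other probe sets of ribosomal and elongation factor genes were often dim. The mean over the 2 probe sets of ZC3H10 was 10.83, and whether its brighter probe set reads that gene was not tested. Ribosomal protein genes also have many near-identical processed copies in the genome, so a probe set may not read 1 locus alone.

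Antigen presentation genes were bright as a group, with a median signal of 11.98 over 22 genes against 8.27 over all measured genes. The class I heavy chain gene SLA-2 lay between 13.06 and 13.48, the class II chain SLA-DRA between 12.86 and 13.15, and CD74, the invariant chain that escorts class II molecules, between 11.98 and 12.96. SLA-3 was the most variable of the list, from 11.07 to 12.60 with a median of 12.55, so that at least 1 pig lay far under the rest. Probe sets for class I genes may read several alleles and paralogs, and a low value of one of them was not separated from a sequence difference in that pig.

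Genes of energy supply were measured in every pig with a small range. GAPDH lay between 13.59 and 13.79, LDHB between 12.89 and 13.03, and the 16 glycolysis genes had a median signal of 10.74. The 60 genes of oxidative phosphorylation had a median of 10.51, led by ATP5E (12.88 to 13.11) and COX6C (12.71 to 12.99). GPX1, the glutathione peroxidase of the cytosol, and FTH1, the heavy chain of ferritin, were the brightest of the red-ox and lipid list, with medians of 13.53 and 13.42.

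**Figure D1:**
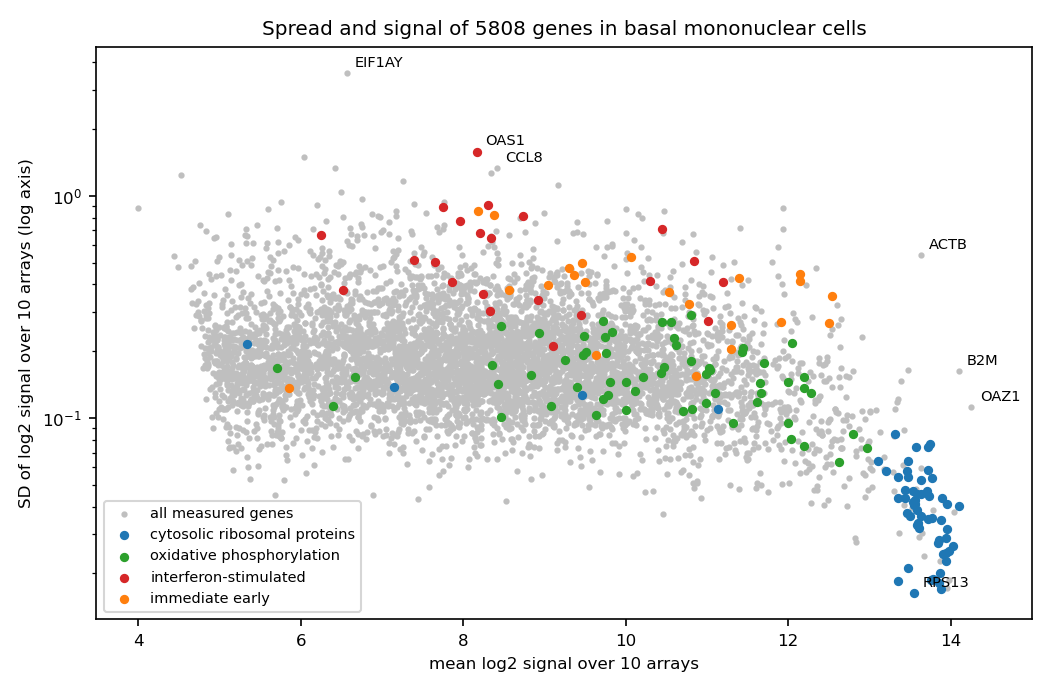
SD of the log2 signal over the 10 basal arrays (vertical, log axis) against the mean log2 signal (horizontal) for the 5808 measured genes, 1 point per gene, with 4 gene lists coloured. Most ribosomal protein genes sit at the bottom right near an SD of 0.04, interferon-stimulated genes lie mostly in the upper part with a median SD of 0.51, and EIF1AY, at 3.58, lies above all others.

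Spread between pigs was small for most genes. The median SD over 5808 genes was 0.17, 645 genes (11.1%) had an SD under 0.1, 172 had an SD above 0.5 and 10 had one above 1. Spread depended on signal: the median SD was 0.18 for genes with a mean of 6 to 8, 0.15 from 10 to 12, 0.10 from 12 to 13 and 0.04 for the 92 genes above 13. Whether the upper limit of the array's range narrows the spread of the brightest genes was not tested.

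The steadiest genes were again those of the ribosome. Among the 1178 genes with a mean above 10, the 20 with the smallest SD included 15 ribosomal protein genes. RPS13 was first, with all 10 pigs between 13.52 and 13.57 and an SD of 0.016. RPLP0, the stalk protein P0, ranged from 13.85 to 13.90, UBB from 13.94 to 13.99 and EF1ALPHA from 13.94 to 14.00. NPM1, the nucleolar chaperone nucleophosmin, was the 1 gene of the set with a mean signal below 13, with values from 12.78 to 12.89 and an SD of 0.028. The last gene included was RPS3A at an SD of 0.0282 and the first left out was RPS24 at 0.0288. With averaged probe sets 10 of the 20 remained, and 13 remained without females 6 and 10.

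Common reference genes differed in steadiness. GAPDH had an SD of 0.06 and FTH1 of 0.09, whereas ACTB, the cytoplasmic actin gene used as a standard in many assays, had 0.54, with a range from 12.20 to 14.03 around a median of 13.76. The other ACTB probe set, with a mean of 9.86 and an SD of 0.80, moved against the brighter one, with r = -0.97 over the 10 arrays. The actin cytoskeleton list as a whole had a mean signal of 11.76 in female 6 and 11.74 in female 10, and of 11.95 to 12.15 in the other 8 pigs, and was thus lowest in the arrays with the largest 3′ to 5′ actin difference or high poly-A values. B2M had an SD of 0.16, close to the median over all genes. At 9 months, only 6 of the 20 steadiest genes were among the steadiest 20.

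The 30 most variable genes had SDs from 3.58 down to 0.82, and the first gene left out, LOC100038328, had 0.81. EIF1AY, the Y-linked copy of a translation initiation factor, was first because it separates the sexes: the females lay between 3.08 and 3.37, the males between 9.75 and 10.08, and its SD within sex was 0.12. LOC396706, ZFX (an X-linked zinc finger gene) and SERPINB2, which encodes plasminogen activator inhibitor 2, were the other genes of the 30 in which every male lay above every female, with within-sex SDs of 0.30, 0.26 and 0.41. In LOC396706 the females lay at 3.13 to 3.68 and the males at 5.40 to 6.10. LOC396706 and EIF1AY were below the detection threshold of 5 in every female and so counted as measured through the males alone. In ZFX the females lay at 5.72 to 6.50 and the males at 7.52 to 7.81. Whether the ZFX probe set reads that locus alone was not tested. The other 26 genes overlapped between the sexes. The 30 were picked by their SD over both sexes, which a difference between the sexes enlarges. How many of all measured genes separate the sexes in this way was not counted, so these counts have no background.

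**Figure D2:**
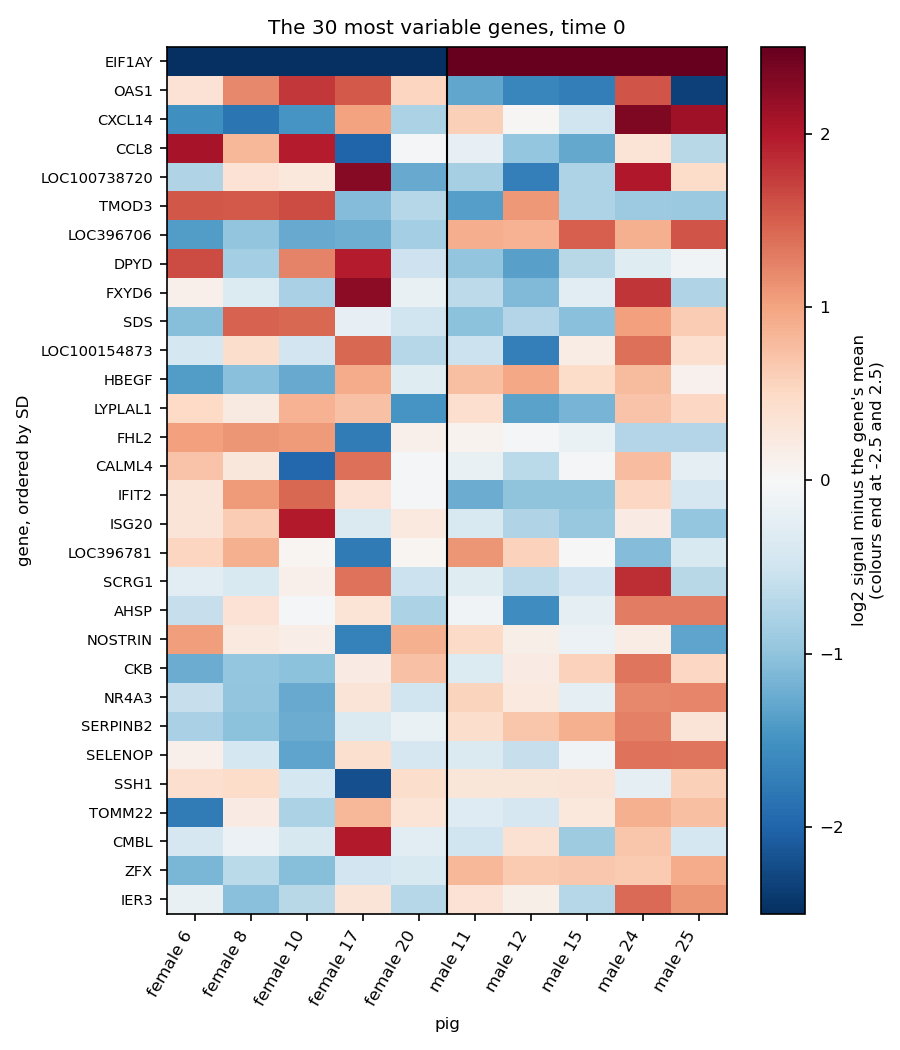
Log2 signal minus the gene's mean over the 10 pigs (colour) for the 30 most variable genes (vertical, ordered by SD) in each pig (horizontal, females left of the line, males right). EIF1AY divides at the line, while OAS1, IFIT2 and ISG20 are high in female 10 and low in males 11, 12 and 15, and FXYD6, SCRG1 and LOC100738720 are high in female 17 and male 24.

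Interferon and chemokine genes led the variable genes that are not sex-linked. OAS1, an enzyme that senses double-stranded viral RNA, ranged from 5.84 to 9.94 with a median of 8.62, which is a 17.1-fold range. It fell into separate sets: 4 males (11, 12, 15 and 25) lay at 6.87 or lower, and the 5 females with male 24 at 8.54 or higher. IFIT2, which blocks translation of viral RNA, ranged from 7.06 to 9.74 around 8.45, and ISG20, an exonuclease of viral RNA, from 6.78 to 9.73 around 7.68. CCL8, a chemokine that attracts monocytes, ranged from 6.40 in female 17 to 10.47 in female 6, with female 10 next at 10.38 and the other 7 pigs between 7.13 and 9.25. CXCL14, a chemokine of uncertain receptor, lay between 4.22 and 7.05 in 8 pigs and at 8.39 and 8.17 in males 24 and 25.

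A second set was highest in female 17 and male 24. FXYD6, a small regulator of the sodium pump, was 11.41 and 10.95 in these pigs and at most 9.30 in the other 8. LOC100738720 was 8.69 and 8.43 against at most 6.88. SCRG1 was 5.35 and 5.84 against at most 4.13, which lies below the detection threshold of 5, so its fold range is not given. It counted as measured through these pigs alone, so it adds no support to the set. Female 17 alone was extreme in further genes: CMBL, a hydrolase, was 7.09 in it against at most 5.80, SSH1, the phosphatase that activates the actin-severing protein cofilin, was 5.35 against at least 7.11, and FHL2, a LIM-domain adaptor, was 5.64 against at least 6.66.

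Several variable genes set females 6 and 10 apart, either alone or together with pigs whose poly-A values were not high. TMOD3, which caps the slow end of actin filaments, was 9.42 to 9.97 in females 6, 8 and 10 and male 12 and 6.97 to 7.62 in the other 6 pigs. Its other probe set, with an SD of 0.29 and r = 0.54 with the brighter one over the 10 arrays, did not show a spread of that size. DPYD, the enzyme that starts pyrimidine breakdown, was 8.88, 8.50 and 9.21 in females 6, 10 and 17 and at most 7.16 elsewhere. TOMM22, a receptor for mitochondrial protein import, was lowest in females 6 and 10, at 8.41 and 9.35, with the other 8 pigs at 9.74 to 11.04. CKB, the brain-type creatine kinase, was 9.23 to 9.50 in females 6, 8 and 10 and 10.13 to 11.81 in the rest.

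Red cell, growth factor and nuclear receptor genes completed the set. AHSP, the chaperone of free alpha globin, ranged from 8.45 in male 12 to 11.28 in males 24 and 25. HBEGF, an epidermal growth factor family ligand, was 6.37 to 6.73 in females 6, 8 and 10 and 7.46 to 8.74 in the other 7 pigs. NR4A3, an orphan nuclear receptor induced by many stimuli, and IER3, an early response gene, were both highest in males 24 and 25, at 9.39 and 9.40 for NR4A3 and 9.80 and 9.49 for IER3. SELENOP, which carries selenium in plasma and is made by macrophages as well as liver, was also highest in them, at 10.36 and 10.33, and lowest in female 10 at 7.68. SDS, serine dehydratase, was 7.97 and 7.93 in females 8 and 10, 7.52 and 7.12 in males 24 and 25, and at most 6.28 elsewhere.

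Where other probe sets of a variable gene were measured, most followed the brighter one. Over the 10 arrays, r was 0.87 and 0.98 for the other IFIT2 probe sets, 0.89 for CXCL14, 0.87 for NR4A3 and 0.94 for ZFX. The IL1A probe sets had r = 0.99. The other probe sets of CMBL and LOC396706 were not measured.

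The spread of a gene at time 0 was related to its spread in the 12 arrays of 9 months, taken after removing the mean of each diet and sex. Across the 5808 genes, Spearman's rho between the SDs was 0.488, and between mean signals Pearson r was 0.983. These are correlations across genes, which are not independent replicates, and pigs 8 and 25 were measured at both times. Of the 30 most variable genes, 3 were among the 30 most variable at 9 months. By a wider measure, 28 lay above the median SD of 9 months and 23 among the 10% of genes with the largest SD there. Sex-linked genes such as ZFX were centred there by construction. FXYD6, which varied 10.1-fold at time 0, had an SD of 0.16 at 9 months, whereas OAS1 kept a large one, 1.40.

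Gene lists chosen by function differed in spread. In the interferon-stimulated list, 18 of 22 genes (81.8%) were among the most variable 10.0% of all measured genes. In the inflammatory list the count was 17 of 25 (68.0%), in the immediate early list 14 of 22 (63.6%), in the platelet list 7 of 10 (70.0%) and in the monocyte and dendritic list 10 of 21 (47.6%). None of the 60 oxidative phosphorylation genes, the 59 ribosomal protein genes or the 19 heat shock and chaperone genes was among them. The T cell list had 3 of 15: CCR7, the lymph node homing receptor (7.29 to 9.55), CTLA4, a checkpoint receptor (5.89 to 7.30), and CD8B, a chain of the CD8 co-receptor (8.18 to 9.43).

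**Figure D3:**
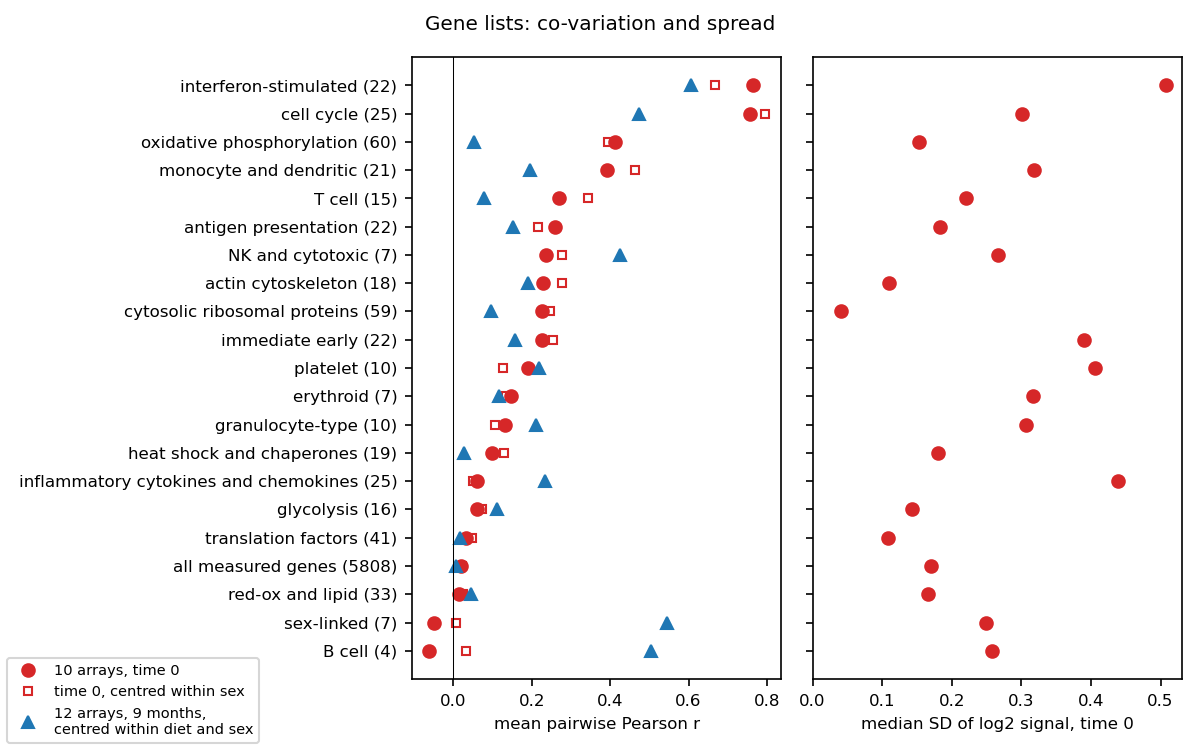
Left, the mean pairwise Pearson r among the genes of each list over the 10 basal arrays (filled circles), the same after centring within sex (open squares) and over the 12 arrays of 9 months after centring within diet and sex (triangles). Right, the median SD of each list at time 0. Numbers in brackets count the measured genes, and the interferon-stimulated and cell cycle lists have the highest mean r at time 0, 0.76 for both, against 0.02 for all measured genes.

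The members of some lists rose and fell together from pig to pig. The mean pairwise r among interferon-stimulated genes was 0.76 at time 0, 0.67 after centring within sex and 0.61 in the 12 arrays of 9 months, against 0.02, 0.02 and 0.01 over all measured genes. The mean signal of the list was 9.59 in female 10, 9.15 in female 8 and 9.09 in male 24, 8.72 to 8.85 in females 6, 17 and 20, and 8.09 to 8.24 in males 11, 12, 15 and 25. MX1, a GTPase that blocks influenza virus, ranged from 9.61 to 11.70 with a median of 10.63. RSAD2, which encodes viperin, ranged from 6.98 to 8.97, IFIT3 from 7.74 to 10.22, and GBP1, a guanylate-binding protein and the brightest of the list, from 10.72 to 12.14. ISG15, the ubiquitin-like modifier, ranged from 9.76 to 11.13.

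Cell cycle genes varied less but together. The 25 genes had a median SD of 0.30, a mean pairwise r of 0.76 and one of 0.47 in the 12 arrays of 9 months. Their mean signal ranged from 8.60 in female 17 to 9.32 in female 8, with males 11 and 12 at 9.31 and 9.23. NUSAP1, a protein of the mitotic spindle, ranged from 7.33 to 8.60, and the mitotic cyclin gene CCNB1 from 7.98 to 9.33.

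Oxidative phosphorylation genes had a small spread, a median SD of 0.15, and a mean pairwise r of 0.41 at time 0 and 0.05 in the arrays of 9 months. Their mean signal was highest in females 6 and 10, at 10.52 and 10.53, and 10.21 to 10.42 in the other 8. The control probe sets thus stood apart in the same arrays, and their part in this co-variation was not tested. Monocyte and dendritic genes had a mean r of 0.39, and their mean signal was highest in female 17 (9.62) and male 24 (9.48) and lowest in male 11 (8.99). FCGR1A, the high-affinity antibody receptor of monocytes, was the most variable of them, from 5.31 to 7.33, followed by SIRPA, a receptor for the self marker CD47, from 7.39 to 8.86. Inflammatory cytokine genes, although variable, had a mean r of 0.06. Of the most variable of them, CCL8 was highest in females 6 and 10, SERPINB2 was lowest in female 10 at 5.93, and IL1A ranged from 7.67 to 9.80.

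The B cell list rested on 4 measured genes with a mean r of -0.06 at time 0 and 0.50 at 9 months, and the 7 NK and cytotoxic genes on 0.24 and 0.43. Among the immediate early genes, with a mean r of 0.23, FOS ranged from 11.34 to 12.87 with a median of 12.07, DUSP1, a phosphatase that switches off MAP kinases, from 12.09 to 12.87, and CREM, a cyclic AMP responsive factor, from 11.96 to 13.04. All are thus bright in every pig. Platelet genes had a mean r of 0.19, and their mean signal ranged from 8.27 in female 6 to 9.14 in male 24. The 7 sex-linked genes had a mean r of -0.05 at time 0 and 0.55 at 9 months after centring within diet and sex. Heat shock, glycolysis, translation factor and red-ox and lipid genes had mean r values from 0.02 to 0.10.

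To see which variable genes move together without lists, the 400 genes with the largest SD (0.39 or more) were clustered on their correlation over the 10 arrays. This gave 8 clusters of at least 10 genes, holding 354 genes. The clusters were chosen on these arrays, so their coherence at time 0 is no result. The arrays of 9 months were not used to form them, although 2 of the 12 come from pigs 8 and 25, which were. Membership depended on the settings. With 200 genes, the best match held 28.6% to 62.0% of the genes of clusters 1 to 6 and 0 genes of clusters 7 and 8. A set of 200 genes cannot hold all 354 clustered genes, which lowers these shares by itself. Of the genes in the best matches of clusters 1 to 6, 71.1% to 93.5% came from the cluster in question. Without females 6 and 10, clusters 3 and 4 merged into 1 cluster of 180 genes, and the best match of cluster 1 held 23.6% of its genes. The background mean pairwise r of all 400 genes was 0.07 at time 0 and 0.06 at 9 months.

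**Figure D4:**
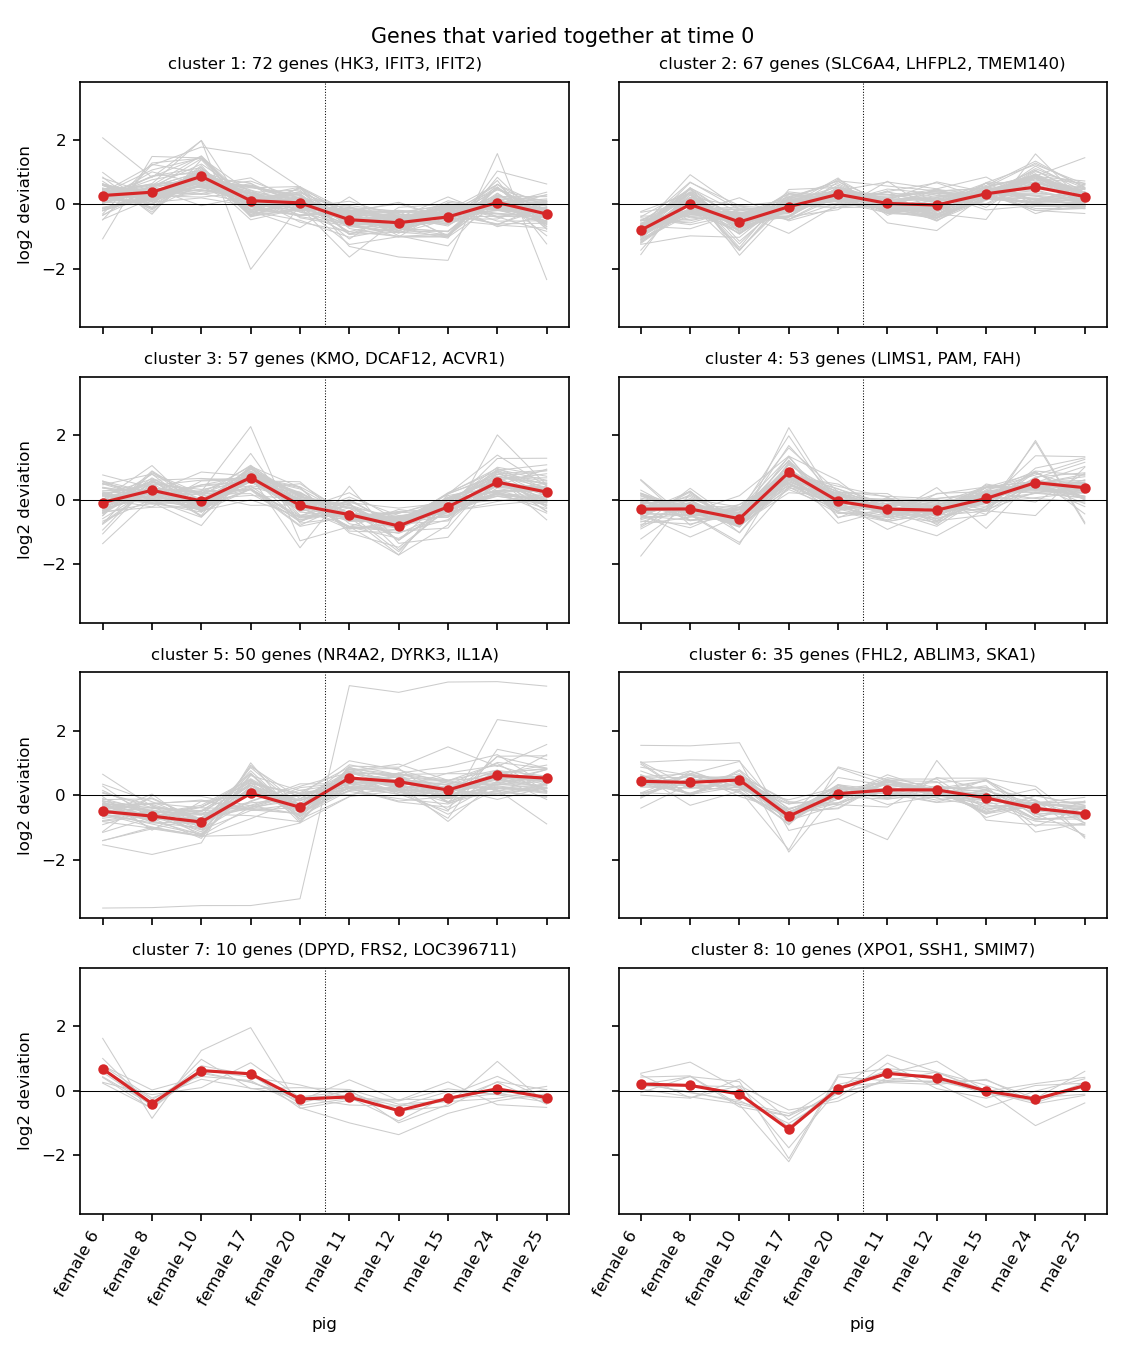
Log2 signal minus the gene's mean (vertical) in each of the 10 pigs (horizontal, females left of the dotted line) for the 8 clusters, with 1 grey line per gene and the cluster mean in red. Cluster 1 is highest in female 10 at 0.87, cluster 2 is lowest in female 6 at -0.80, and female 17 is highest in cluster 4 at 0.85 and lowest in cluster 8 at -1.19.

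Cluster 1 held 72 genes, among them 13 of the 22 interferon-stimulated genes. The genes closest to its mean were HK3, IFIT3, IFIT2, LOC733579, DDX58 (the RNA sensor RIG-I) and MX1. HK3 is the hexokinase of myeloid cells and ranged from 9.39 to 11.00. The cluster mean deviated by 0.87 in female 10, 0.38 in female 8, 0.27 in female 6 and 0.05 to 0.11 in females 20 and 17, whereas male 24 stood at 0.06 and the other males between -0.57 and -0.30. The mean pairwise r of these 72 genes fell to 0.41 once each sex was centred and was 0.19 at 9 months. Clustering after centring each sex left 33.3% of them together.

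Cluster 2 held 67 genes, among them 4 of the 10 measured genes of the platelet list. It included SLC6A4, the serotonin transporter that loads platelets, and RAB27B, which serves granule release. ITGA2B, the fibrinogen receptor chain, PPBP, SELP and GNG11 were in it too. ITGA2B ranged from 8.46 to 10.44 with a median of 9.61 and SELP, the adhesion receptor P-selectin, from 7.11 to 8.43. The cluster also held CKB, CCR7, ACTB and ARPC4, a subunit of the actin-nucleating Arp2/3 complex. The cluster mean was -0.80 in female 6 and -0.55 in female 10 and lay between -0.07 and 0.54 in the other 8 pigs, so it was lowest in the arrays with high poly-A values. The part of the labelling in this was not tested. Its genes had a mean r of 0.36 at 9 months, the highest value among the 8 clusters.

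Cluster 3 held 57 genes, including the red cell genes AHSP, HBM, ALAS2, FECH (the enzyme that inserts iron into haem), RHCE (a blood group antigen) and DMTN (dematin, of the red cell skeleton). ALAS2 ranged from 10.16 to 12.33 and HBM from 8.60 to 11.29. Female 17 (0.69) and male 24 (0.55) were highest and male 12 (-0.81) lowest. HBB, with an SD of 0.16, was not in the cluster. KMO, an enzyme of tryptophan breakdown, and CCR3, the eotaxin receptor of eosinophils and basophils, were in it too. Its mean r was 0.24 at 9 months. Without male 24 the best match held 28.1% of its genes, and without male 12 29.8%.

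Cluster 4 held 53 genes and CD14, with SELENOP, VLDLR (the very low density lipoprotein receptor), LIMS1, PAM, FAH, ADAM28 and PLXDC2. Female 17 (0.85), male 24 (0.53) and male 25 (0.38) were highest and female 10 (-0.58) lowest, and the mean r was 0.27 at 9 months. Cluster 6, with 35 genes, ran the opposite way, from 0.48 in female 10 to -0.65 in female 17, and held FHL2, SKA1, PTTG1 (securin, which holds sister chromatids together), CCNB1, CCNB2 and NUSAP1. Its mean r was 0.18 at 9 months.

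Cluster 5 held 50 genes, with 7 of the inflammatory and 5 of the immediate early list: IL1A and IL1B, the interleukin 1 genes, CXCL8 (interleukin 8), PTGS2 (cyclooxygenase 2), NR4A2, NR4A3 and IER3, and also the Notch ligand JAG1. IL1B ranged from 10.94 to 12.92 with a median of 12.20 and CXCL8 from 9.74 to 11.64. The 5 males lay between 0.16 and 0.62 and the females between -0.83 and 0.06, and EIF1AY, LOC396706 and ZFX fell into this cluster. After centring within sex its mean r was 0.33 and at 9 months 0.04, under the background of 0.06. Clustering after centring each sex left 20.0% of its genes together. Clusters 7 and 8 held 10 genes each. Cluster 7, around DPYD, was 0.68, 0.63 and 0.53 in females 6, 10 and 17 and 0.06 or lower elsewhere. Its mean had r = 0.83 with the 3′ minus 5′ actin difference over all arrays and 0.66 without females 6 and 10. With the poly-A level, r was 0.79 over all arrays and 0.40 without females 6 and 10. The means of clusters 3, 4 and 6 had r = 0.35, 0.01 and 0.09 with the actin difference over all arrays. Without females 6 and 10 these were 0.70, 0.70 and -0.73. For clusters 1, 2, 5 and 8, r without these females was 0.16, 0.04, 0.42 and -0.44. The part of RNA integrity and labelling in the clusters was not tested. Cluster 8, with XPO1 (the main nuclear export receptor), SSH1 and CXCR6, was -1.19 in female 17 and -0.26 to 0.54 elsewhere. The mean r at 9 months was 0.05 for cluster 7 and 0.26 for cluster 8. Cluster 8 had 0 genes in its best match without female 17 or without male 11.

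To ask which probe sets follow a single marker, the slope of each measured probe set on that marker was fitted with limma, with a term for sex, and adjusted over all probe sets. CD14 was the marker with calls: 218 of 16708 probe sets passed an adjusted p of 0.05 (1.30%), 119 with CD14 (0.712%) and 99 against it (0.593%). The 5 genes with the smallest p that rose with CD14 were PTBP3, an RNA-binding protein (slope 1.36, SE 0.18, limma adjusted p 0.0235), SLC3A1, ADAM9, IL13RA1 (a chain of the interleukin 13 receptor) and SLC31A2, with slopes from 1.12 to 1.36. Those with the smallest p that fell were UQCR10, a small subunit of respiratory complex III (slope -0.61, SE 0.09, limma adjusted p 0.0252), NUDT5, POLE2 (a DNA polymerase subunit), F12 and NME1, with slopes from -1.21 to -0.51. A slope of 1 means that the gene changes by the same fold as CD14.

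Other monocyte genes ran with CD14. All 20 of the other measured monocyte and dendritic genes had a positive slope, with a median of 0.38 against -0.06 over all measured genes, and 3 of them passed: CD163, the haemoglobin scavenger receptor (7.98 to 9.38), TYROBP, an adaptor of activating receptors (11.03 to 11.96), and LGALS3, galectin 3 (8.57 to 9.70). SPP1, osteopontin, passed from the inflammatory list with a slope of 1.30. Over the 5807 other measured genes, 38.5% of slopes on CD14 were positive, and 38 genes passed with CD14 and 53 against it. In the T cell list 5 of 15 slopes were positive (33.3%), near that share, with 0 genes passing. All 25 cell cycle genes had a negative slope, with a median of -0.46, and CKS1B passed. In the oxidative phosphorylation list 54 of 60 slopes were negative, and 5 genes passed: ATP5G1, NDUFA11, NDUFA4, NDUFB1 and UQCR10.

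**Figure D5:**
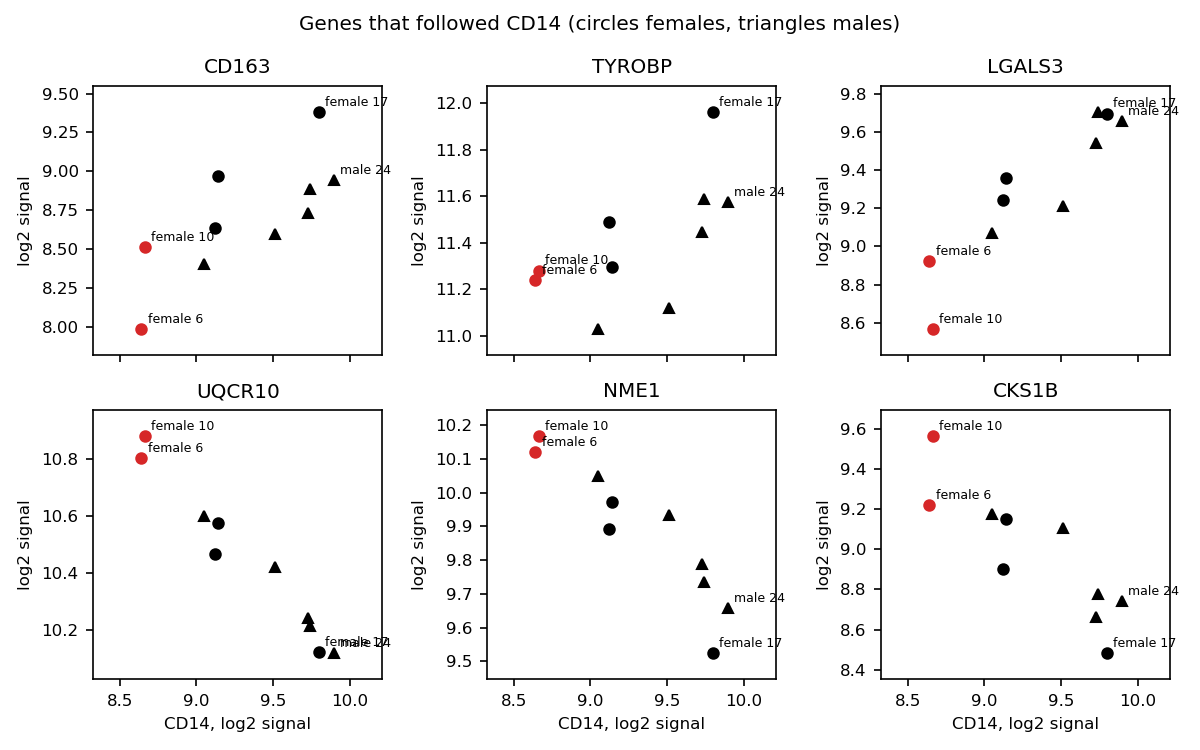
Log2 signal of 6 genes called with or against CD14 (vertical) against that of CD14 (horizontal), 1 point per pig, circles for females, triangles for males and red for females 6 and 10. CD163, TYROBP and LGALS3 rise with CD14, UQCR10, NME1 and CKS1B fall, and females 6 and 10 hold the lowest CD14 values while female 17 and male 24 hold the highest.

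These calls rested on few pigs. Without females 6 and 10, which had the lowest CD14 and the high poly-A values, 0 probe sets passed. Without female 17 alone 1 passed, without male 24 alone 2 and without female 10 alone 5. The poly-A level was not fitted as a term beside CD14, so its part in these calls was not tested. The counts were 40 without male 25, 69 without male 11, 102 without female 6, 105 without female 20 and 109 without male 12. Over all settings tried the slopes kept their sign: those of the 5 genes named with CD14 ranged from 0.79 (SLC31A2) to 1.52 (PTBP3), and those of the 5 named against it from -1.38 (F12) to -0.41 (NME1). The other CD14 probe set, with a mean of 5.68, had r = -0.10 with the brighter one over the 10 arrays.

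For the other 8 markers, limma called 0 probe sets (0% of 16709), and the counts at an unadjusted p under 0.05 were 2374 for CD3E, 1899 for FOS, 1078 for CD79B, 922 for PPBP, 872 for GNLY, 616 for MX1, 615 for HBB and 531 for S100A12. S100A12, with a mean of 5.14, lay close to the detection threshold. For some markers the 0 depended on the setting. CD3E had 41 probe sets without females 6 and 10, 16 without female 6 alone, 10 without female 20 and 17 with the actin difference as a term, and with no sex term MX1 had 43 and PPBP 31. The slopes of related genes are given as values. On MX1, all 21 other interferon-stimulated genes had a positive slope, with a median of 0.74 against 0.01 over all measured genes. On CD3E, all 14 other T cell genes did, with a median of 0.50 against 0.07. All 25 cell cycle genes did too, with a median of 1.07, while 1 of 21 monocyte genes did. On HBB, by contrast, 1 of 6 other erythroid genes had a positive slope, and on PPBP 5 of 9 platelet genes. Among all measured genes, positive slopes made up 55.2% on MX1, 57.6% on CD3E, 54.7% on HBB and 46.4% on PPBP.

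The control measures were put in the place of a marker after the data had been seen. With the 3′ minus 5′ actin difference, 145 of 16710 probe sets passed (0.868%), 11 with the difference (0.0658%) and 134 against it (0.802%), ARPC4 (slope -1.31) and UCP2, a mitochondrial uncoupling protein (slope -0.51), among them. With the poly-A level 445 passed (2.66%), 121 with it (0.724%) and 324 against it (1.94%), among them ARPC4 (slope -1.29), CCR7 (slope -1.18) and ADAM9 (slope -0.87), which was also one of the genes with CD14. Without females 6 and 10 both counts were 0.

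Pairs of markers, and markers with the 2 control measures, gave 54 correlations over the 10 arrays, and 0 passed after Benjamini-Hochberg adjustment. The 4 with an unadjusted permutation p under 0.05 involved CD14 with the poly-A level, CD3E and CD79B with the actin difference, and S100A12 with HBB. CD3E had r = -0.72 and rho = -0.73 with the actin difference (permutation p = 0.0175 and 0.0204, adjusted 0.341 and 0.550), and r = -0.70 without the arrays of females 6 and 17. CD79B had r = -0.71 and rho = -0.68 (permutation p = 0.0189 and 0.0355, adjusted 0.341 and 0.584), and r = -0.37 without female 6 and male 12, the pigs farthest from the median. It was -0.77 without females 6 and 10 and -0.68 after centring within sex. S100A12 and HBB had r = -0.68 and rho = -0.79 (permutation p = 0.0317 and 0.0091, adjusted 0.428 and 0.490), and r = -0.57 without female 10 and male 12. The mean of S100A12, 5.14, was close to the detection threshold of 5, and HBB had an SD of 0.16 against a median of 0.17 over all genes. CD14 had r = -0.73 and rho = -0.59 with the poly-A level (permutation p = 0.0151 and 0.0802, adjusted 0.341 and 0.652), and r = -0.63 after centring within sex. The poly-A level splits the arrays into 2 sets, and without females 6 and 10 r was 0.18.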

How the data were processed

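The 10 time 0 columns of the series table were used, and the 12 columns of 9 months served to view the same genes elsewhere. The deposited values are intensities on a linear scale, made by the authors with GCOS, RMA and Affymetrix Expression Console 1.1, per the submitters' processing notes. The log2 of each deposited intensity was taken after a floor of 1. RMA scales all arrays to a shared distribution, so a shift of the whole transcriptome cannot be seen. The number of arrays limits the precision.

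Of 24123 probe sets, 124 controls were set aside. Of the other 23999, 10069 had 1 gene symbol in the platform annotation, 198 several and 13732 none. For 74 Entrez IDs the pig gene table of RefSeq had no entry, and 0 symbols changed. Probe sets above 5 in at least 2 arrays, 16710 in all (69.6%), entered the fits. A gene took its brightest probe set.

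Named genes were drawn from the 25 brightest, 30 most variable and 20 steadiest, and from the 3 most variable and 2 brightest of each of 20 lists. Others came from the genes with the smallest p per marker and the 6 nearest each cluster's mean. Not every gene of these sets is named. Further genes named (S100A8, S100A12, ELANE, CD163, TYROBP, LGALS3, RSAD2, IFIT3, CCR3 and other list or cluster members) were chosen after their values were seen. Members, lists and tests were chosen with earlier results of these data known, and symbols caught wrongly by the oxidative phosphorylation and translation lists were removed after inspection. Slopes used limma 3.58.1 in R 4.3.3, two-sided, with Benjamini-Hochberg adjustment, and were tested on simulated data. Clusters used average linkage on 1 minus Pearson r, with the tree divided at 0.5. Permutation tests of marker pairs used 100000 resamples, two-sided. Python 3.11.15 and scipy 1.17.1 did the rest. Alternatives covered the probe set rule, centring, filters, sex, the actin term and each pig left out.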

Additional observations from a re-analysis of the deposited data

Results flagged for a closer look

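Within each sex, the highest and lowest of the 5 pigs were compared with their nearest neighbour by Dixon's ratio, and chance alone marks about 1 in 20 groups that were not chosen for their spread. Of the 134 groups examined 12 stood out, and 7 of these are genes picked as the most variable over the same arrays, so the count cannot be read against chance. Among the males, male 24 stood apart in OAS1 (9.74, nearest 6.87), MX1 (10.98, nearest 9.78) and the mean of the interferon-stimulated list (9.09, nearest 8.24), which share genes, and also in FXYD6 (10.95, nearest 8.89) and SCRG1 (5.84, nearest 3.70, the latter below the detection threshold). Male 12 stood apart in TMOD3 (9.42, nearest 7.57). Among the females, female 17 stood apart in the mean of cluster 8 (-1.19, nearest -0.10) and in CMBL (7.09, nearest 4.95). Female 20 stood apart in LYPLAL1, a lysophospholipase-like enzyme (4.28, nearest 5.99), and in EIF1AY (3.37, nearest 3.16), where all females are below the detection threshold. Female 10, one of the arrays with high poly-A values, stood apart in GNLY (11.60, nearest 12.01) and in the mean of the red-ox and lipid list (9.49, nearest 9.46).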

How the results depend on the processing

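Of the 25 brightest genes, 14 remained when the probe sets of a gene were averaged. Of the 30 most variable, 19 remained with a filter of 7 in at least 5 arrays and 15 by median absolute deviation. Of the 20 steadiest, 10 remained with averaged probe sets and 13 without pigs 6 and 10. Clusters held 177 genes from 200 and 710 from 800. With no sex term, probe sets passing were 547 for CD14, 43 for MX1 and 31 for PPBP. With the actin difference as a term they were 666 for CD14, 17 for CD3E and 1 for MX1. Without pigs 6 and 10 they were 0 for CD14, 41 for CD3E and 2 for MX1. Leaving out 1 pig at a time, 24 to 25 of the brightest, 23 to 29 of the most variable and 16 to 19 of the steadiest remained, clusters numbered 6 to 10 with 354 to 377 genes, and probe sets passing were 1 to 181 for CD14, 0 to 16 for CD3E, 0 to 2 for FOS and for MX1, and 0 to 0 for the other markers and for marker pairs. The cause of these shifts was not tested. No named slope changed sign. Each named slope was refitted under 14 settings. The 10 on CD14, all called, lost the call in 4 to 6 settings each, 46 times in all, and the 24 on other markers, none called, passed 9 times. With no sex term, both control measures called more, 316 probe sets for the actin difference and 1715 for the poly-A level. No paired analysis was possible because each pig gave 1 array at time 0. The planned count of promoter motifs was not run, since no promoter sequences were used here.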

Other observations

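Lipid and red-ox genes, few of which lead any result above, included some with a clear spread. CPT1A, which admits fatty acids to mitochondria, ranged from 8.34 to 10.01 with a median of 9.19, and its SD of 0.63 fell to 0.16 within sex. ABCA1, the cholesterol exporter, ranged from 7.10 to 8.65 around 8.03, and NQO1, a quinone reductase, from 6.54 to 8.41 around 7.33. Of the 33 measured genes of this list, 8 (24.2%) were among the most variable 10% of all measured genes, and their mean pairwise r was 0.02. FABP4, PPARA, PPARG and PDK4 were not measured.

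Thrombospondin 1, THBS1, had 5 probe sets that differed in signal, and the other 4 followed the brightest with r between 0.85 and 0.94 over the 10 arrays. It ranged from 9.13 to 11.18 with a median of 10.75. It fell into cluster 5 with the interleukin 1 genes, not into cluster 2, which held 4 genes of the platelet list, although it is on that list.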
